A study of Mus musculus with 12 samples.

Results

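The actin isoforms were the 6 genes Acta1, Actc1, Acta2, Actg2, Actb and Actg1, taken by name from the 18193 genes that had a probe set of their own. They were measured by 9 of the 34945 probe sets that name 1 gene, with the array's control probe sets left out. Their signal was followed across the cardiac ventricles of 12 mouse embryos at embryonic day 16.5, with 3 independent ventricles per genotype on single-colour Affymetrix arrays. The 4 groups were double-null embryos lacking both Hopx and Hdac2, Hdac2-null embryos, Hopx-null embryos and wild-type embryos. The Hdac2 protein removes acetyl groups from histones, and Hopx is a short homeodomain protein that acts through partners instead of binding DNA. The series asked how the heart of the embryo is affected by deficiency of either gene or of both. For the alleles, any Cre driver and the strain nothing is given in the sources used here. The ventricle holds vessel, endocardial and connective tissue cells beside its muscle.

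Actin is the globular protein that polymerises into the thin filaments of muscle and into the cytoskeleton of every cell. Mammals carry a small family of near-identical actin genes, which are told apart by the tissue that uses them. Acta1 (skeletal alpha-actin) and Actc1 (cardiac alpha-actin) build the sarcomere, Acta2 and Actg2 serve vascular and visceral smooth muscle, and Actb and Actg1 are the cytoplasmic isoforms. In the rodent heart Acta2 and Acta1 mark early and fetal stages, Actc1 is the lasting sarcomeric isoform, and Acta1 returns under haemodynamic load. The muscle actin genes are textbook targets of serum response factor (SRF), which binds the CArG box.

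RefSeq (GRCm38.p6) gave promoters for 4 of the 6 genes, Acta1, Actc1, Acta2 and Actg1, all on the minus strand. The 250 bases before the annotated start were searched on both strands for the CArG box. In this box 6 A or T letters stand between CC and GG. All positions count from that annotated start, and where transcription begins in these ventricles was not assessed. Matches 1 letter off were sought too, in which CC and GG stay and 1 of the 6 inner letters is C or G. The whole window of Acta1 is shown because that gene had the widest spread of the family between ventricles, and capitals mark the box and the 1-letter-off matches (chr8:123894776-123895025, minus strand).
Acta1: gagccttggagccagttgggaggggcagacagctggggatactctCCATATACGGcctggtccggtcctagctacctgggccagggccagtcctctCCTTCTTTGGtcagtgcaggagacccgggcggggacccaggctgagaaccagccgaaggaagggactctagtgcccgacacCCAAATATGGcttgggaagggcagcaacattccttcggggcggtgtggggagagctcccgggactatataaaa

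The exact box of Acta1, CCAAATATGG, lay 73 to 64 bases before the start. For the other genes 30 bases around 1 match each are shown with the match in capitals, to set beside it. They lie at chr2:114052903-114052932 for Actc1, chr11:120348566-120348595 for Actg1 and chr19:34255438-34255467 for Acta2, all minus strand.
Actc1: gctaaggcgaCCAAATAAGGcaaggtggca
Actg1: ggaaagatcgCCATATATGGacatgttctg
Acta2: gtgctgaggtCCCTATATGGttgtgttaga

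Actc1 and Actg1 held 1 exact box each, 47 to 38 and 90 to 81 bases before the start. Acta2 held no exact box in this window and 2 matches that were 1 letter off, at 84 to 75 and at 34 to 25 bases. Of all 32851 promoters of the same length, 1.47% held an exact box and 8.59% an exact box or a match 1 letter off. A match of letters is a description of the sequence and says nothing about binding in these ventricles.

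Signals below a floor of 82.9 units were raised to it before taking log2. Between 37.5% and 37.9% of probe sets lay above it on each array, a share that normalisation of the deposited values can set, so it does not compare the quality of the arrays. The targeted genes followed the labels: Hdac2 (1445684_s_at) was at 4.15 ± 0.148 in double-null, 4.05 ± 0.0049 in Hdac2-null, 4903 ± 679 in Hopx-null and 4839 ± 314 in wild-type ventricles (SD, n = 3 each). Hopx (1428662_a_at) was at 1700 ± 38.6 in double-null, 12042 ± 317 in Hdac2-null, 1992 ± 111 in Hopx-null and 9817 ± 2082 in wild-type ventricles. Its other probe set (1451776_s_at) was at 9.71 ± 0.0111, 1358 ± 179, 11.9 ± 1.94 and 787 ± 322 in the same order, below the floor where Hopx was absent. All 12 cardiomyocyte markers on the list were above the floor on at least 3 arrays, and 16 of 22 skeletal muscle markers, among them Myod1, Myog and the adult fast myosins Myh1, Myh2 and Myh4, were at or below it on all 12. The array wild type 1 had a Gapdh log2 ratio of 3′ to 5′ signal of 1.33, against 0.842 to 1.07 on the others. It held the highest signal of all arrays in 17.0% of tested probe sets, with Hopx-null 1 (14.1%) and Hdac2-null 2 (13.4%) close to it. After the floor it was counted as lowest in 15.9%, double-null 3 in 14.9% and Hdac2-null 2 in 12.5%. Ties at the floor were counted for the first tied array in order, and wild type 1 came first. The shares of lowest signal therefore favour it and do not rank the arrays. Xist, an RNA made in female cells, was at 4988 or more on 5 arrays, replicate 1 of every genotype and wild type 2, and at 22.2 or less on the remaining 7.

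No actin isoform passed the test in any comparison. The test was limma's moderated test over 15293 single-gene probe sets, with Benjamini-Hochberg adjustment and a threshold of 0.05, and 7 of the 9 actin probe sets were above the floor on at least 3 arrays and entered it. In double-null against wild-type ventricles 0 of 7 were called, where the test called 0.0392% of all probe sets. The count was also 0 of 7 in Hdac2-null against wild type (0.0196% of all called), in Hopx-null against wild type (0.0131%), in double-null against Hdac2-null (0.0131%), in double-null against Hopx-null (0.0196%) and in the interaction of both losses (0%). Setting the 6 ventricles without Hdac2 against the 6 with it, 0 of 7 were called, against 0.0262% of all. The calls that made up these shares were of Hdac2, Hopx, Tnni2 and Myef2. At an unadjusted p under 0.05 the same 7 comparisons held 1150, 828, 393, 1759, 1197, 636 and 1398 probe sets. Without wild type 3 the calls numbered 10 in double-null and 6 in Hdac2-null against wild type and 33 in ventricles without against with Hdac2, against 6, 3 and 4. Without wild type 1 they numbered 6 against 3 in double-null against Hopx-null, and without Hopx-null 1 they numbered 8 against 4 in ventricles without against with Hdac2. No actin was among them.

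**Figure D1:**
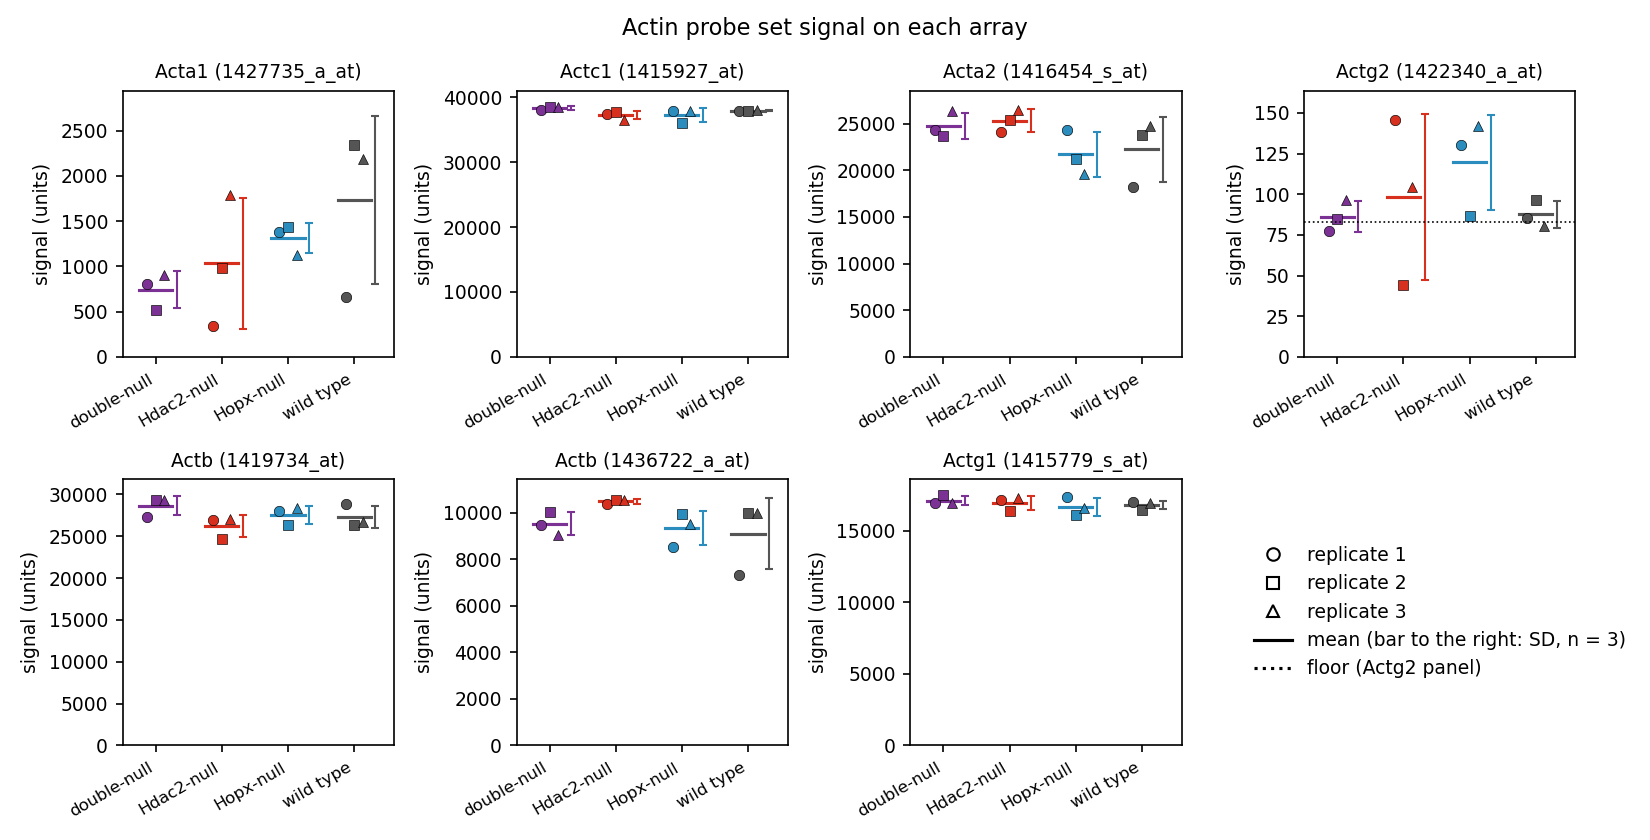
Signal of the 7 tested actin probe sets on each of the 12 arrays, in the deposited linear signal units on axes that start at 0, by genotype; symbols give the replicate number, horizontal lines the mean of 3 and vertical bars the SD. Actc1 and Actg1 are nearly level, Acta1 runs from 342 to 2345, and wild type 1 is the lowest array for Acta2 and for 1 Actb probe set.

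Acta1, the skeletal alpha-actin, was the isoform that varied most between ventricles of 1 genotype, by the SD pooled over genotypes after the floor. Within Hopx-null ventricles Actg2 varied more (SD 24.5% of the mean, against 12.8% for Acta1). Its probe set (1427735_a_at) read 804, 515 and 907 in the double-null ventricles and 342, 978 and 1786 in the Hdac2-null ventricles. It read 1383, 1436 and 1122 in the Hopx-null ventricles, and 665, 2345 and 2189 in the wild-type ventricles. The 3 double-null values lay below the 3 Hopx-null values, while the wild-type group ran from near the bottom to the top of the whole series, and the Hdac2-null group from its lowest value upward. The group means ran in the order wild type, Hopx-null, Hdac2-null and double-null, and each neighbouring pair in that order overlapped.

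The Acta1 mean was 742 ± 203 in double-null and 1733 ± 928 in wild-type ventricles (SD, n = 3 each), a log2 difference of -1.06 (SE 0.57, 95% interval -2.31 to 0.19, limma adjusted p = 0.68). Hdac2-null ventricles, at 1035 ± 724, measured -0.84 against wild type (SE 0.57, adjusted p = 0.876), and Hopx-null ventricles, at 1314 ± 168, measured -0.20 (SE 0.57, adjusted p = 1). Against Hopx-null ventricles the double-null ones measured -0.86 (SE 0.57, 95% interval -2.11 to 0.40, adjusted p = 0.734), and against Hdac2-null ones -0.22 (SE 0.57, adjusted p = 0.912). These comparisons share control arrays and are not independent of each other. As folds, the interval of the double-null difference from wild type ran from 0.201 to 1.14, so that neither a large decrease nor a level near that of wild type lies outside it.

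Over both genotypes without Hdac2, Acta1 averaged 889 ± 502, against 1523 ± 639 over both genotypes with it (SD, n = 6 each). The log2 difference was -0.85 (SE 0.40, 95% interval -1.73 to 0.04, unadjusted p = 0.059, limma adjusted p = 0.563), and the groups overlapped, since Hdac2-null 3 was among the high arrays and wild type 1 among the low. The interaction, which asks whether the losses add on the log2 scale, was -0.02 (SE 0.81, adjusted p = 1).

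Single arrays moved these Acta1 values by more than 1.5-fold without bringing a call. Without wild type 1 the double-null difference from wild type was -1.65 (adjusted p = 0.769), the Hdac2-null difference -1.43 (adjusted p = 1), the Hopx-null difference -0.79 (adjusted p = 0.98) and the interaction 0.57 (adjusted p = 0.952). Without Hdac2-null 1 the Hdac2-null difference from wild type was -0.19 (adjusted p = 0.98), that of double-null from Hdac2-null -0.87 (adjusted p = 0.554) and the interaction -0.67 (adjusted p = 0.949). Both arrays came from ventricles with high Xist. So did wild type 2, Hopx-null 1 and double-null 1, where Acta1 read 2345, the highest of the series, 1383 and 804. Double-null 2, at 515, had low Xist. A fit with Xist as a covariate gave -1.27 for double-null against wild type (adjusted p = 0.801), and the part of sex was not tested.

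Actc1, the cardiac alpha-actin of the sarcomere, had the signal that varied least of the family between ventricles of 1 genotype, by the SD pooled over genotypes. Saturation of bright probes was not assessed here, so this signal may understate differences in RNA. Its probe set (1415927_at) read 38050.4, 38444 and 38494 in the double-null and 37459, 37709 and 36529.5 in the Hdac2-null ventricles. It read 37869, 36076 and 37872 in the Hopx-null, and 37816, 37862 and 37972 in the wild-type ventricles. Every double-null value was above every value of the other 3 genotypes, and every Hdac2-null value was below every wild-type one, within a total range of 1.07-fold.

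Against wild type, Actc1 measured log2 0.02 in double-null ventricles (SE 0.02, 95% interval -0.04 to 0.07, adjusted p = 0.866), -0.03 in Hdac2-null ventricles (SE 0.02, interval -0.08 to 0.03, adjusted p = 0.893) and -0.02 in Hopx-null ventricles (SE 0.02, interval -0.08 to 0.03, adjusted p = 1). In double-null ventricles it measured 0.04 against Hdac2-null (interval -0.01 to 0.09, adjusted p = 0.532) and 0.04 against Hopx-null ones (interval -0.01 to 0.09, adjusted p = 0.699). As folds, the lowest and highest ends of these 5 intervals were 0.947 and 1.07.

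Ventricles without against with Hdac2 averaged 37781 ± 734 and 37578 ± 738 for Actc1 (SD, n = 6 each), a log2 difference of 0.01 (SE 0.02, interval -0.03 to 0.05, adjusted p = 0.915). Its interaction was 0.07 (SE 0.03, interval -0.01 to 0.14, unadjusted p = 0.0795, adjusted p = 0.954).

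**Figure D2:**
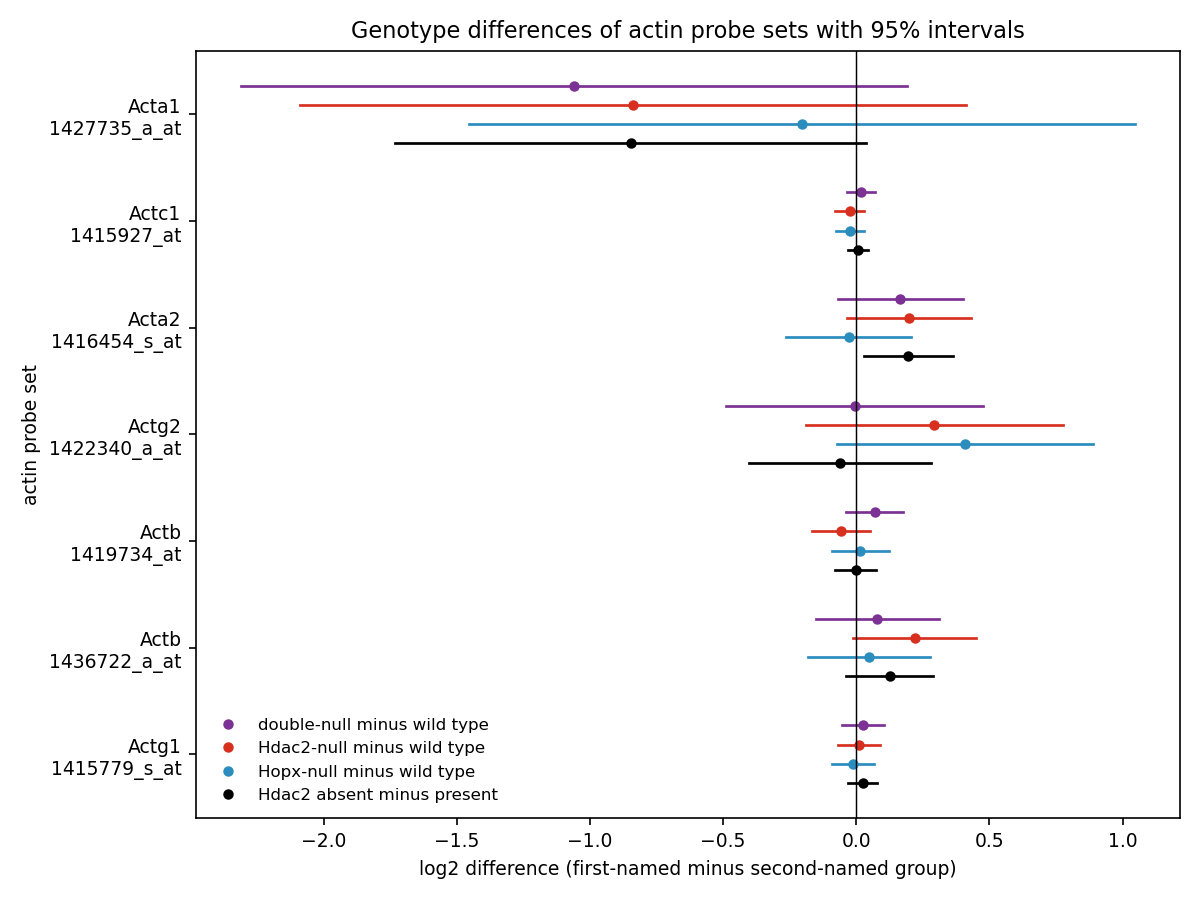
Log2 differences of the 7 tested actin probe sets with 95% intervals from limma, for each null genotype minus wild type (n = 3 each) and for ventricles without minus with Hdac2 (n = 6 each). The Acta1 intervals are the widest, those of Actc1 and Actg1 the narrowest, and the Acta2 interval without minus with Hdac2 lies above 0 before adjustment over all probe sets.

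Acta2, the smooth muscle alpha-actin, was far above the floor in every ventricle. Its probe set (1416454_s_at) read 24262, 23639 and 26330.3 in the double-null and 24073, 25362 and 26483 in the Hdac2-null ventricles. It read 24272, 21208 and 19604 in the Hopx-null and 18217, 23813 and 24691 in the wild-type ventricles. The 3 lowest arrays were wild type 1 and Hopx-null 3 and 2, the highest were Hdac2-null 3 and double-null 3, and the groups overlapped in every comparison.

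Ventricles without Hdac2 averaged 25025 ± 1213 for Acta2, against 21968 ± 2697 with it (SD, n = 6 each). This 1.15-fold difference was log2 0.20 (SE 0.08, 95% interval 0.03 to 0.36, unadjusted p = 0.0244), and did not pass over all probe sets (limma adjusted p = 0.519). Against wild type, Acta2 measured 0.17 in double-null (SE 0.11, adjusted p = 0.72), 0.20 in Hdac2-null (SE 0.11, adjusted p = 0.876) and -0.03 in Hopx-null ventricles (SE 0.11, adjusted p = 1). Double-null ventricles measured 0.19 against Hopx-null (adjusted p = 0.673) and -0.03 against Hdac2-null ones (adjusted p = 0.933), and the interaction was 0.00 (95% interval -0.34 to 0.33, adjusted p = 0.999).

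The Acta2 values rested in part on wild type 1. Without it the difference was 0.03 for double-null (adjusted p = 0.953) and 0.06 for Hdac2-null against wild type (adjusted p = 1), and 0.13 for ventricles without against with Hdac2 (adjusted p = 0.694). The probe set shares probes with other transcripts by its name ending (_s_at), so signal from a near-identical actin cannot be told apart from that of Acta2.

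The other Acta2 probe sets gave no measurable signal. 1444105_at ran from 4.43 to 7.61, and 1456658_at from 4.34 to 13.2, the top value on Hdac2-null 3. Both lay below the floor on all 12 arrays and were not tested, and the low readings do not bear on the level of the gene.

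Actg2, the enteric smooth muscle gamma-actin, lay at the limit of measurement. Its probe set (1422340_a_at) read 77.3, 84.8 and 96.2 in the double-null and 146, 44.3 and 104 in the Hdac2-null ventricles. It read 130.4, 86.5 and 142 in the Hopx-null and 85.6, 96.6 and 80.5 in the wild-type ventricles. It was above the floor on 9 of 12 arrays, of which 2 were double-null, 2 Hdac2-null, 3 Hopx-null and 2 wild-type, and all groups overlapped.

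After the floor, Actg2 measured log2 -0.01 in double-null (SE 0.22, adjusted p = 0.997), 0.29 in Hdac2-null (SE 0.22, adjusted p = 0.879) and 0.41 in Hopx-null ventricles against wild type (SE 0.22, adjusted p = 1). The interaction was -0.71 (SE 0.31, 95% interval -1.39 to -0.03, unadjusted p = 0.0428), and did not pass (adjusted p = 0.954). In this comparison 636 of 15293 probe sets had an unadjusted p under 0.05. Double-null ventricles measured -0.30 against Hdac2-null (adjusted p = 0.627) and -0.42 against Hopx-null ones (adjusted p = 0.664), and ventricles without against with Hdac2 -0.06 (adjusted p = 0.929).

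Actb, the cytoplasmic beta-actin widely used as a loading reference, had 2 tested probe sets that differed in which genotypes read high. 1419734_at read 27320.5, 29298 and 29312 in the double-null and 26986, 24672 and 27042 in the Hdac2-null ventricles. It read 28032, 26372 and 28369 in the Hopx-null and 28844, 26393 and 26694 in the wild-type ventricles. Every double-null value was above every Hdac2-null value, and the other groups overlapped in all pairs.

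For this probe set the double-null mean was 28643 ± 1146 and the Hdac2-null mean 26234 ± 1352 (SD, n = 3 each), a log2 difference of 0.13 (SE 0.05, 95% interval 0.02 to 0.24, unadjusted p = 0.0247, limma adjusted p = 0.384). Against wild type it measured 0.07 in double-null (SE 0.05, adjusted p = 0.735), -0.06 in Hdac2-null (SE 0.05, adjusted p = 0.883) and 0.02 in Hopx-null ventricles (SE 0.05, adjusted p = 1). Ventricles without against with Hdac2 measured 0.00 (95% interval -0.08 to 0.07, adjusted p = 0.991).

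The second Actb probe set, 1436722_a_at, read 9499.7, 10052 and 9054 in the double-null and 10375, 10551 and 10568 in the Hdac2-null ventricles. It read 8525, 9963 and 9530.3 in the Hopx-null and 7337, 9991 and 10002 in the wild-type ventricles. Here the Hdac2-null values were the highest of all and lay above every value of the other genotypes, and wild type 1 was the lowest array.

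For 1436722_a_at the log2 difference from wild type was 0.08 in double-null (SE 0.10, adjusted p = 0.849), 0.22 in Hdac2-null (SE 0.10, 95% interval -0.01 to 0.45, unadjusted p = 0.0598, adjusted p = 0.876) and 0.05 in Hopx-null ventricles (SE 0.10, adjusted p = 1). Double-null against Hdac2-null ventricles measured -0.14 (SE 0.10, adjusted p = 0.636), the opposite sign to the other Actb probe set. Neither difference was called, so no direction of Actb between these genotypes was settled.

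The array's own control probe sets for beta-actin, which are no members of the list, followed 1436722_a_at on wild type 1. There the controls for the 3′ end, the middle and the 5′ end read 9532, 2645 and 1411, each the lowest of the 12 arrays. On the other 11 arrays they ran from 11265 to 13535, from 3336 to 4324 and from 1665 to 2060. 1419734_at read 28844 on wild type 1, the highest of its group. The log2 ratio of 3′ to 5′ signal of these beta-actin controls was 2.76 on wild type 1 and ran from 2.63 to 2.80 on the others. The part of RNA quality, read by this ratio or by the Gapdh ratio given above, was not tested.

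**Figure D3:**
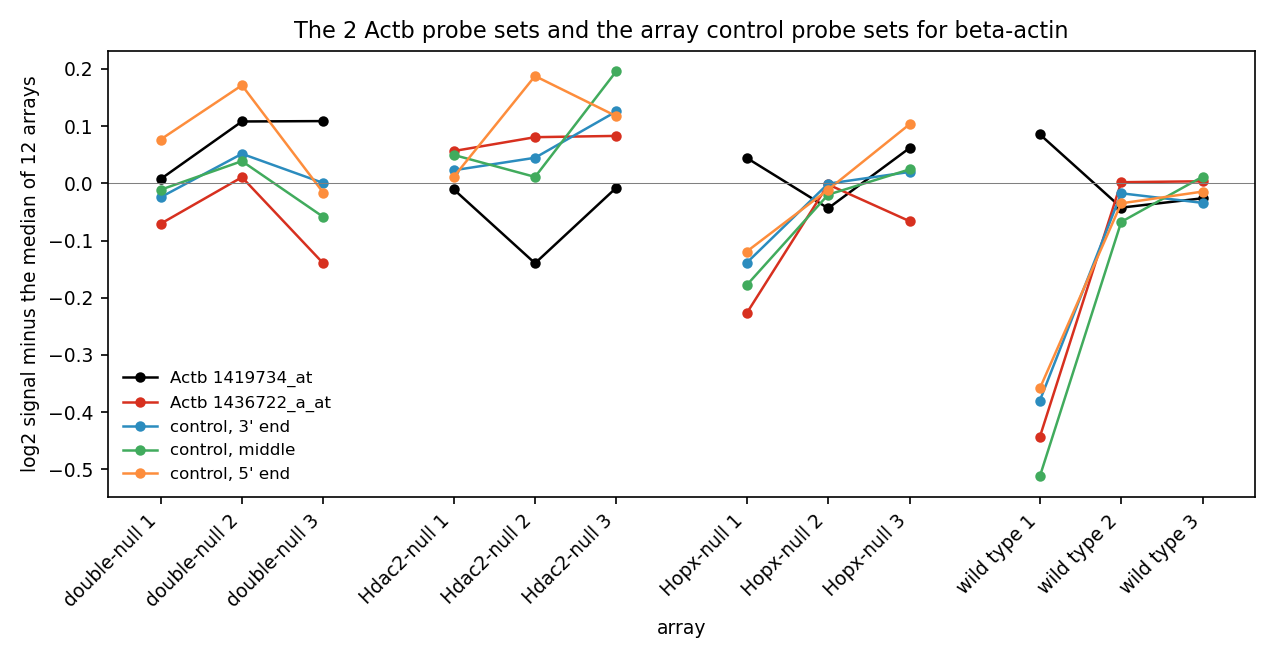
Log2 signal of both tested Actb probe sets and of the 3 array control probe sets for beta-actin, each minus its own median over 12 arrays, for every array in order of genotype. The controls and 1436722_a_at are at their lowest on wild type 1, where 1419734_at is above its median; lines only join arrays of 1 genotype.

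Actg1, the cytoplasmic gamma-actin, was nearly level. Its probe set (1415779_s_at) read 16951, 17506 and 16919 in the double-null and 17144, 16378 and 17295 in the Hdac2-null ventricles. It read 17345, 16123 and 16607 in the Hopx-null and 17053, 16470.4 and 16933 in the wild-type ventricles. All groups overlapped, within a total range of 1.09-fold.

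Against wild type, Actg1 measured log2 0.03 in double-null (SE 0.04, 95% interval -0.05 to 0.10, adjusted p = 0.858), 0.01 in Hdac2-null (SE 0.04, interval -0.07 to 0.09, adjusted p = 0.973) and -0.01 in Hopx-null ventricles (SE 0.04, interval -0.09 to 0.07, adjusted p = 1). Ventricles without against with Hdac2 measured 0.02 (SE 0.03, interval -0.03 to 0.08, adjusted p = 0.796). This probe set too ends in _s_at, and its probes may read other actins.

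Counted by groups that did not overlap, 1 of 7 actin probe sets stood apart in double-null against wild type (Actc1, higher), where 15.7% of all tested probe sets did. In Hdac2-null against wild type 2 of 7 stood apart (Actb 1436722_a_at higher and Actc1 lower), against 10.5% of all, and in Hopx-null against wild type 0 of 7, against 4.66%. In double-null against Hdac2-null 3 of 7 stood apart (Actb 1419734_at and Actc1 higher, Actb 1436722_a_at lower), against 27.1% of all. In double-null against Hopx-null 2 of 7 did (Actc1 higher, Acta1 lower), against 14.6%, and in ventricles without against with Hdac2 0 of 7, against 0.608%. With 7 probe sets these shares are too coarse to set apart from those of all probe sets.

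The isoforms differed from each other in their spread between ventricles of 1 genotype. The residual SD within genotype was 0.83 on the log2 scale for Acta1, above 99.2% of all tested probe sets and above 98.6% of the 500 nearest to it in level. For Acta2 it was 0.15, near the middle of all probe sets (52.3%) but above 99.2% of the 500 of like level. Actb 1436722_a_at, at 0.15, was above 91.4% of its like, Actb 1419734_at, at 0.066, above 70.0%, and Actg2, at 0.29, above 69.8%. Actg1, at 0.039, was above 16.8% and Actc1, at 0.024, above 5%. The percentiles are descriptions, with no test.

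**Figure D4:**
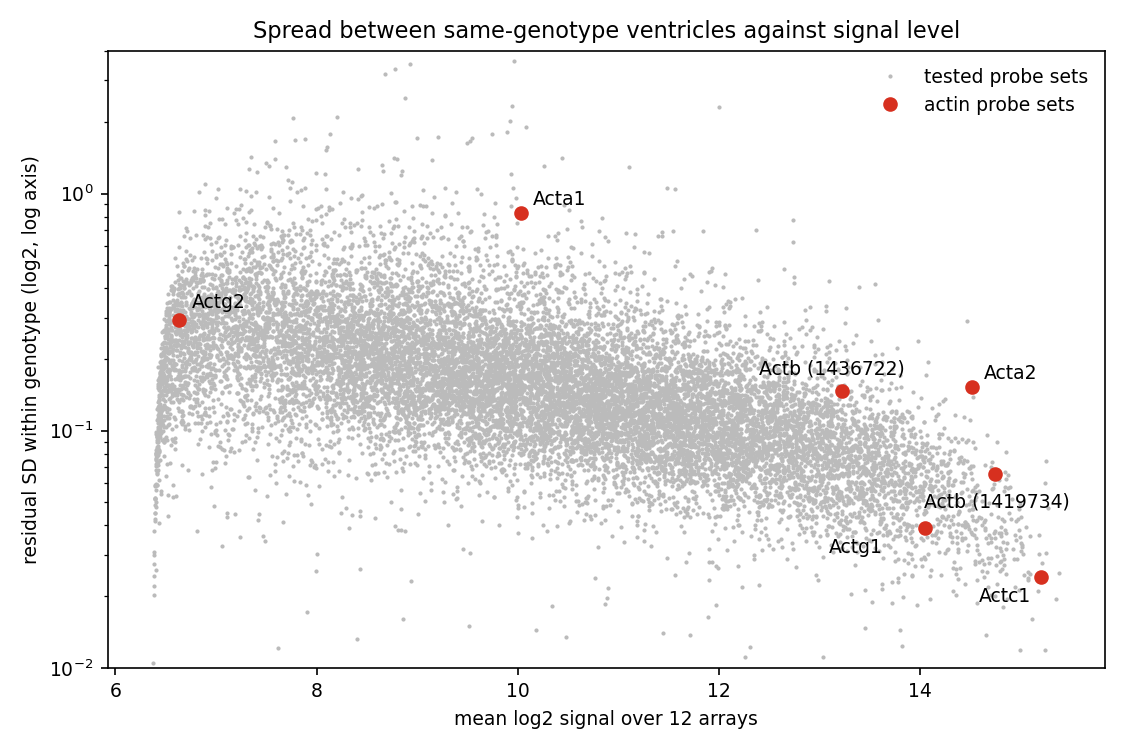
Residual SD within genotype (log2, log axis) against mean log2 signal over 12 arrays for all tested probe sets (grey) and the 7 actin probe sets (red). Acta1 and Acta2 lie above most probe sets of their level, while Actc1 and Actg1 lie in the lower part.

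Genes with the most alike pattern were sought for the 5 isoforms above the floor on all 12 arrays, which leaves out Actg2, each by its brightest probe set. All tested genes were compared by Pearson r of log2 signal after the floor over the 12 arrays, as a description. Some of the genes found, such as Zfp982, Prr5l and Tmem267, lay below the floor on some arrays. For Acta2 they were Zfp991 (r = 0.953), Znf41-ps (0.931), Zfp982 (0.903), Hspb7 (0.902) and Sptssa (0.877). Within genotype, after taking away each group's mean, the same r were 0.943, 0.894, 0.951, 0.897 and 0.932. The first 3 are zinc finger genes or pseudogenes, and Hspb7 encodes a small heat shock protein of cardiac and skeletal muscle. These 4 lie on chromosome 4, in places 501, 500, 502 and 487 of the 587 tested genes there, while Acta2 lies on chromosome 19.

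Zfp991 read 1789, 1030.4 and 2097 in the double-null, 938, 1750 and 1860 in the Hdac2-null, 881, 663 and 344 in the Hopx-null and 229, 1049 and 2032 in the wild-type ventricles. Hspb7 read 13261, 9858 and 12777 in the double-null, 9601, 13020.0 and 14198 in the Hdac2-null, 11056, 10922 and 6860 in the Hopx-null and 6263, 11229 and 13881 in the wild-type ventricles. Both were lowest on wild type 1 and next lowest on Hopx-null 3, the same arrays as Acta2. Their range over the arrays was 9.17-fold for Zfp991 and 2.27-fold for Hspb7, against 1.45-fold for Acta2.

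**Figure D5:**
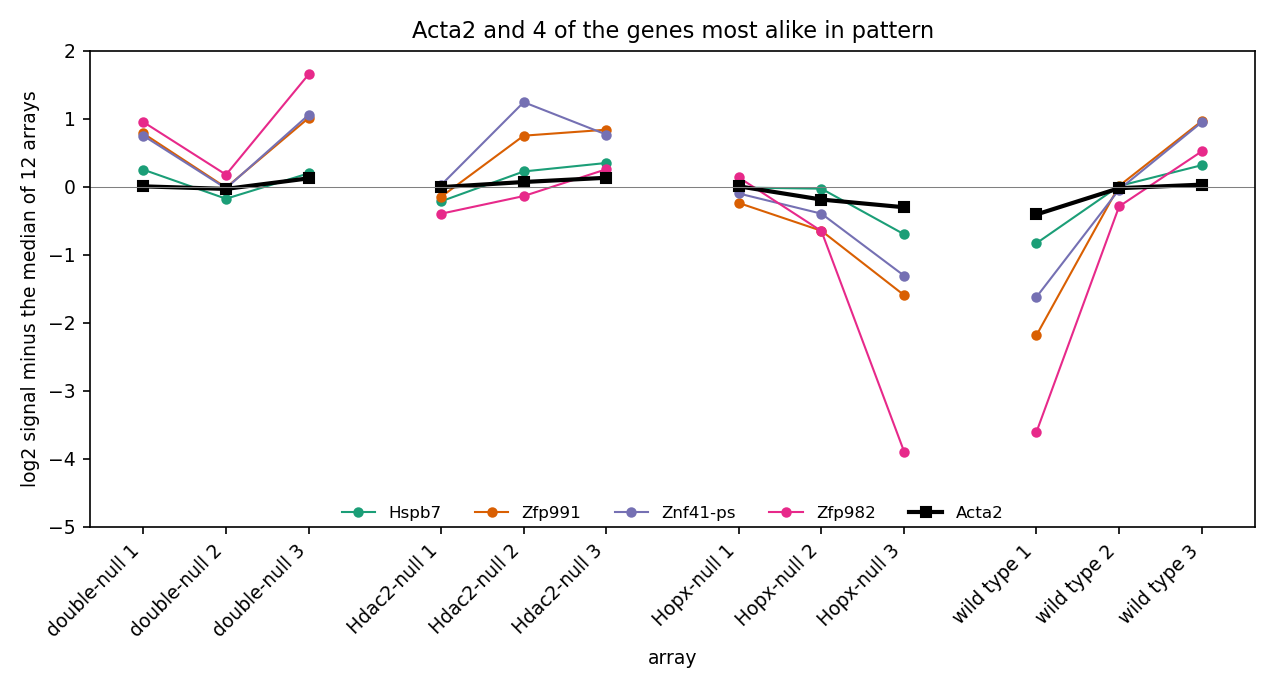
Log2 signal minus the median of 12 arrays for Acta2 and for the 4 genes on chromosome 4 among the 5 most like it, on every array in order of genotype. All 5 are low on wild type 1 and Hopx-null 3, by more than Acta2 itself for the 4 others.

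For Acta1 the most alike were Ccdc174 (r = 0.934), Ppp1r3d (0.887), Wdr45b (0.884), Apobec2 (0.879) and Hspb6 (0.835). Ppp1r3d encodes a glycogen-targeting subunit of protein phosphatase 1, Apobec2 a muscle member of the cytidine deaminase family, and Hspb6 a small heat shock protein of muscle. Apobec2 read 5936, 5935 and 6289 in the double-null, 5499 to 7159 in the Hdac2-null, 6643 to 7313 in the Hopx-null and 5759 to 7357 in the wild-type ventricles. Its lowest arrays were Hdac2-null 1 and wild type 1, which were low for Acta1 too, over a range of 1.34-fold against 6.86-fold for Acta1.

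For Actc1 they were Plekhf2 (0.906), Lamp2 (0.887), Katnbl1 (0.879), Hif1a (0.854) and Rap2c (0.841). Katnbl1 lies 4 tested genes from Actc1 on chromosome 2, and Hif1a encodes the oxygen-regulated transcription factor HIF-1 alpha. For Actb (1419734_at) they were Caap1 (0.978), Spry4 (0.975), Fbxo22 (0.965), Ndufb6 (0.964) and Acvr2a (0.96). For Actg1 they were Prr5l (0.877), Tmem267 (0.86), Fabp5 (0.851), Sp1 (0.85) and Lmnb2 (0.849). Points of 1 array share its RNA and its labelling, and the highest r among all tested genes is high by selection.

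The genes that work with actin were read from lists chosen with earlier results of these data known. Thin filament and actin capping genes had 18 of 20 members tested, and in double-null against wild type 0 were called, with 6 higher and 12 lower and a median log2 of -0.02 (all genes: -0.01, with 54.6% lower). Tnni3, the cardiac inhibitory troponin, was at 18896 ± 268 against 20687 ± 1812 (log2 -0.13, SE 0.06, adjusted p = 0.662), and Capzb, the capping protein beta subunit, measured -0.23 (SE 0.11, adjusted p = 0.663). Capza1, a capping protein alpha subunit, measured 0.09 (SE 0.06, adjusted p = 0.699). Tpm1, the main tropomyosin of heart muscle, measured -0.07 in double-null, 0.07 in Hdac2-null and 0.06 in Hopx-null ventricles, each against wild type (SE 0.04). In ventricles without against with Hdac2, 5 of these genes were higher and 13 lower, with 0 called (median -0.03, all genes -0.01), and Tpm2 measured 0.23 (SE 0.10, adjusted p = 0.55).

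Genes of actin assembly and turnover had 25 of 30 members tested and 0 called in any comparison. In double-null against wild type 11 were higher and 14 lower (median log2 -0.01). Pfn1, profilin, which feeds actin monomers to growing filaments, was at 3138 ± 227 against 4064 ± 485 (log2 -0.37, SE 0.12, adjusted p = 0.601). Enah, a filament elongation factor, measured 0.18 (SE 0.07, adjusted p = 0.658) and the cross-linker Flna 0.23 (SE 0.10, adjusted p = 0.662). In ventricles without against with Hdac2, Actn4, a non-muscle alpha-actinin, was at 3697 ± 310 against 3117 ± 378 (log2 0.25, SE 0.09, adjusted p = 0.509), and Pfn1 measured -0.21 (SE 0.09, adjusted p = 0.531).

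SRF and its cofactors had 9 of 9 members tested and 0 called in any comparison, with 5 higher and 4 lower in double-null against wild type (median log2 0.01). Srf measured 0.12 in ventricles without against with Hdac2 (5912 ± 695 against 5436 ± 693, SE 0.10, adjusted p = 0.715), and Myocd, its heart and smooth muscle coactivator, 0.07 (SE 0.09, adjusted p = 0.828). Mrtfa, an actin-sensing coactivator, measured -0.45 in double-null against wild type (SE 0.22, adjusted p = 0.663) and -0.28 in ventricles without against with Hdac2 (SE 0.15, adjusted p = 0.612).

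Smooth muscle genes, read beside Acta2 and Actg2, had 14 of 15 members tested and 0 called in any comparison. In ventricles without against with Hdac2, 7 were higher and 7 lower (median log2 -0.02), with Smtn, smoothelin, at 509 ± 34.5 against 588 ± 60.1 (log2 -0.21, SE 0.09, adjusted p = 0.535) and the intermediate filament gene Des at -0.14 (SE 0.07, adjusted p = 0.554). The summed signal of the list ran from 68796 to 70985 in double-null, 67777 to 75183 in Hdac2-null, 70573 to 75106 in Hopx-null and 71416 to 74434 in wild-type ventricles. Pln alone averaged 26411 ± 725 in double-null and 26024 ± 178 in wild-type ventricles, while Myh11 averaged 116 ± 42.8 in wild type. The sum thus follows its brightest genes and is no measure of smooth muscle content. In bulk ventricle, fewer cells of a type and less RNA per cell cannot be told apart.

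Skeletal muscle genes, read beside Acta1, had 6 of 22 members tested. In double-null against wild type 2 were higher and 4 lower, where 54.6% of all genes were lower, and 1 was called. Tnni2, fast skeletal troponin I, was the one called member, at 488 ± 108 in double-null and 676 ± 244 in Hdac2-null against 52.4 ± 29.2 in wild-type ventricles (log2 2.52, adjusted p = 0.00413, and 2.95, adjusted p = 0.00137). Acta1 was below wild type on average in the same groups, without a call. In double-null against wild type Casq1, the skeletal muscle calsequestrin, was at 4051 ± 344 against 2767 ± 540 (log2 0.56, SE 0.17, adjusted p = 0.571). The muscle enolase gene Eno3 measured -0.18 there (SE 0.06, adjusted p = 0.635). Myl1, a fast skeletal myosin light chain, measured -1.04 in double-null against wild type (181 ± 61.3 against 379 ± 159, SE 0.38, adjusted p = 0.65).

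Genes that accompany Acta1 in the fetal and loaded heart had 8 of 9 members tested and 0 called in any comparison. In double-null against wild type 3 were higher and 5 lower (median log2 -0.08). Myl7, the atrial regulatory light chain, was at 7129.9 ± 1652 against 10795 ± 1540.3 (log2 -0.61, SE 0.22, adjusted p = 0.65), and Sln, sarcolipin, at 451 ± 298 against 1004 ± 559 (log2 -1.26, SE 0.86, adjusted p = 0.726). Ankrd1, a stretch-responsive ankyrin repeat gene, measured 0.08 (SE 0.04, adjusted p = 0.679), and Myl4, the atrial essential light chain, -0.12 (SE 0.07, adjusted p = 0.681). In ventricles without against with Hdac2, 3 were higher and 5 lower (median log2 -0.04), and Myl7 measured -0.38 (SE 0.16, adjusted p = 0.534). In the same comparison the natriuretic peptide genes had opposite signs, with Nppa at -0.25 (20968.5 ± 3299.7 against 24999 ± 4343, SE 0.14, adjusted p = 0.616) and Nppb at 0.18 (6883 ± 993 against 6068 ± 973, SE 0.12, adjusted p = 0.655). Their part in the Acta1 values was not tested.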

How the data were processed

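Ventricular RNA was hybridised to 12 arrays. The deposited table holds a linear intensity for each probe set on each array, and MAS5 is named in the submitters' processing notes, without a version. Of these deposited intensities 48.6% lay within 1 unit of 4.5, a shape closer to a model-based summary, so the method stays unsettled and no further normalisation was made. Low signals were raised to a floor of 82.9 units (the average 2% trimmed mean of an array times 0.1), which shrinks differences of dim probe sets, and log2 was taken. Platform annotation gave 34945 single-gene probe sets (932 had several genes, 9160 none, 64 were controls). Of the single-gene probe sets 34741 were matched to RefSeq and took its symbol, whether or not it differed. Probe sets above the floor on at least 3 arrays (15293) entered 1 fit of the 12 arrays in limma 3.58.1 (R 4.3.3), with 1 coefficient per genotype, an intensity trend and 8 residual degrees of freedom. P-values were adjusted by Benjamini-Hochberg within each of 7 comparisons. Every adjusted p is from this fit, except where the text names a left-out array or another setting, which was fitted anew. Lists are counted over 9491 genes, each by its brightest probe set.

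Members and lists were chosen with earlier results of these data known. Every actin probe set is named, with up to 4 members of smallest p per list and the 5 genes most alike in pattern. The labels call the samples biological replicates. Their numbers were checked as pairs: same-numbered Hopx-null and wild-type arrays deviated together (r across genes of 0.493, 0.464 and 0.179). Double-null with Hdac2-null arrays gave 0.269, 0.0842 and 0.275, and Hdac2-null with Hopx-null arrays 0.186, 0.168 and 0.0927, positive in all 3 pairs too. The remaining combinations of genotypes were mixed in sign, down to -0.228 for double-null with wild type 2. Arrays of different number were compared too. For Hopx-null 1, 2 and 3 the highest r with a differently numbered wild-type array was -0.198, 0.0629 and 0.0175. For Hdac2-null 2 it reached 0.434, against -0.186 for the same number, so arrays can deviate together without sharing a number. The number of arrays limits the precision. Alternatives covered the floor, the filter, the scaling, the probe sets tested, the replicate number, Xist, array weights and leaving out each array.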

Additional observations from a re-analysis of the deposited data

Results flagged for a closer look

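Actc1 (1415927_at) was singled out because the loss of Hdac2 went with opposite directions on the 2 Hopx backgrounds. With Hopx present, all 3 Hdac2-null arrays lay below all 3 wild-type arrays (37232 ± 622 against 37883 ± 80.1, SD, n = 3 each). With Hopx absent, all 3 double-null arrays lay above all 3 Hopx-null arrays (38329 ± 243 against 37272 ± 1036). Of all tested probe sets, 10.5% stood apart in the first of these comparisons and 14.6% in the second, in either direction. The share that did so in opposite directions was not counted, and saturation of this bright probe set was not assessed. The interaction in limma was 0.065831 on the log2 scale (unadjusted p = 0.0795, adjusted p = 0.954), so it did not pass over all probe sets.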

How the results depend on the processing

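The actin differences were recomputed under 25 alternatives, 12 of which left out 1 array. A floor 2 times as high left Actg2 untested, and 1 probe set per gene left out Actb 1436722_a_at. Of the 1197 values obtained, 2 passed, both with array weights in double-null against Hdac2-null, Actb 1419734_at (log2 0.13, adjusted p = 0.0323) and Actg2 (-0.54, adjusted p = 0.0467), in a fit that called 1526 probe sets there. The sign differed in 64 values, none of them called. The fold moved by over 1.5 times in 15, all of Acta1: with array weights it was -1.76 in double-null and -1.77 in Hdac2-null against wild type, -1.47 without against with Hdac2 and 0.60 in the interaction.

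Counts of probe sets called moved by over 1.5 times in 16 of 173 cases. With 1 probe set per gene they were 3 in double-null and 1 in Hopx-null against wild type, 1 in double-null against Hdac2-null and 2 without against with Hdac2. With array weights they were 13 in double-null against wild type and 17 without against with Hdac2. Without wild type 1 and Hopx-null 1 together, chosen after seeing the data, they were 4 in Hopx-null against wild type, 6 in double-null against Hopx-null, 1 in the interaction and 9 without against with Hdac2, and Acta1 was -0.84 in Hopx-null against wild type and 0.61 in the interaction. Leaving out 1 array at a time, they ran from 5 to 10 in double-null, 3 to 6 in Hdac2-null and 2 to 3 in Hopx-null against wild type, 2 to 6 in double-null against Hopx-null and 3 to 33 without against with Hdac2. With the replicate number as a block 6 were called in double-null, 3 in Hdac2-null and 2 in Hopx-null against wild type, 2 in double-null against Hdac2-null, 3 in double-null against Hopx-null, 0 in the interaction and 5 without against with Hdac2, and the block changed no call of an actin. A fit of only the compared groups gave no value for the interaction or for the comparison by Hdac2. The causes of these shifts were not tested. Dim probe sets limit Actg2, and the spread between 3 arrays limits Acta1.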
